A study of Mus musculus with 20 samples.

Results

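Mouse splenic T effector cells that lack the RNA-binding protein Pcbp2 were compared with cells that keep it, after 6 h of stimulation through CD3 and CD28. The comparison holds 8 of the study's 20 RNA sequencing libraries, 3 from Pcbp2 knockout cells (CKO) and 5 from control cells (CTL). Mice of both genotypes carried a floxed Pcbp2 gene, and CKO mice carried in addition the CD4-Cre transgene, which is active from the CD4 and CD8 double-positive stage of the thymus onward. Since only CKO mice carried it, Pcbp2 loss and the transgene cannot be told apart as sources of a difference between the genotypes. Littermates supplied both genotypes, and CD4+CD25- cells were flow sorted from spleen at a purity of over 99%, per the labels. The sorted cells were kept for 6 h with mouse T-activator beads that bind CD3 and CD28, then frozen. CTL holds 3 libraries labelled male and 2 labelled female, and CKO holds 2 labelled male and 1 labelled female. The remaining 12 libraries, 6 of each genotype, are of cells frozen without stimulation (0 h), and they entered the model only to share its estimate of the spread and to set the differences at 6 h beside those at 0 h. Genes were taken in where their mean over the 8 libraries was at least 1 CPM, the read count scaled to library size, which kept 16612 of 49315. The plain mean CPM lay between 1 and 1.1 for 560 genes just inside this minimum, of which 1 was called, and between 0.9 and 1 for 676 genes just outside it.

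Pcbp2, also called hnRNP E2, is a KH-domain protein that binds cytosine-rich stretches of RNA and DNA. It takes part in splicing, in the stability and translation of mRNAs, in the turnover of the antiviral adaptor MAVS, and in carrying iron to ferritin and other iron-binding proteins. Binding of CD3 and CD28 sets off antigen receptor signalling with costimulation, which leads to early transcription factors, cytokines and growth within hours in CD4 T cells.

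Each library is named here by the number in its title, such as 5.13, which the labels do not explain. The labels do not tie a library to an animal, so that p-values measure the spread between these libraries, some of which may be technical. Of the 8 libraries at 6 h, 7 held between 62402807 and 76775918 counts. The remaining one, CTL 4.24, held 26427467. Its counts were spread more widely, with 1.8% in processed pseudogenes and unconfirmed models against 0.365% to 0.486% in the other 7. Its log2 levels correlated with the other CTL libraries at 0.858 to 0.907, where the highest correlation of each of the others within its group was 0.989 to 0.994. Of 2618 genes that passed the minimum only with CTL 4.24 in, 99.4% had their highest level in that library. Their median log2 fold change was −1.68, and 1 of them was called. For this reason many results are also given without CTL 4.24. Taken over all counts of a library, the T cell transcripts Cd3e (264 to 350 CPM) and Trac (278 to 561 CPM) were present in all 8 libraries, and Cd8a, which marks the other main T cell lineage, stood at 2.11 to 7.31 CPM.

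Pcbp2 itself was almost absent from each CKO library. This gene (ENSMUSG00000056851, GRCm38 chromosome 15, 102470539 to 102500061, plus strand) stood at 7.59, 11.3 and 7.42 CPM in CKO libraries 5.13, 5.6 and 11.18. In CTL libraries 4.29, 4.24, 5.13, 9.20 and 10.28 it stood at 333, 284, 332, 372 and 345 CPM. The groups did not overlap, and the lowest CTL value belonged to CTL 4.24. The CKO mean was 2.64% of the CTL mean, or 2.51% without CTL 4.24, with a log2 fold change of −5.24 ± 0.21 (SE, adjusted p = 3.33e-12). Permuting the genotype labels over the log2 levels (exact, two-sided) gave p = 0.0179, the smallest value that 56 assignments of 3 and 5 libraries allow. Counts cover the whole gene, and reads from exons outside the floxed part are included.

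None of the 4 relatives with the same kind of RNA-binding domain was called by edgeR or DESeq2, whereas limma voom with quality weights called all 4, Pcbp3 and Pcbp4 higher and Pcbp1 and Hnrnpk lower. Pcbp1, an intronless relative that binds similar sequences, stood at 234 to 353 CPM in CKO and 237 to 329 CPM in CTL (log2 fold change −0.06 ± 0.16 SE). Pcbp3 gave 0.10 ± 0.13, Pcbp4 gave 0.22 ± 0.14 and Hnrnpk, a nuclear relative with 3 such domains, gave 0.00 ± 0.12. The levels of each of these genes overlapped between the groups, and without CTL 4.24 Hnrnpk stood at −0.11. Of the 5 family members tested, edgeR called 1, Pcbp2 itself, and the median log2 fold change was 0.00 (−0.08 without CTL 4.24).

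Among the genes called with all libraries, rises in CKO outnumbered falls. The quasi-likelihood test of edgeR, adjusted over all 16612 genes by the Benjamini-Hochberg method, called 102 at an adjusted p under 0.05 (0.614%). Of these 82 were higher in CKO (0.494%) and 20 were lower (0.12%), and 32 of the higher and 9 of the lower differed at least 2-fold. Without CTL 4.24 the same test called 173 of 14036 genes (1.23%), 121 higher (0.862%) and 52 lower (0.37%). In all, 94 genes were called both ways, 78 of them higher and 16 lower. The libraries of CKO and CTL did not overlap for 95 of the 102, where 833 (5.01%) and 543 (3.27%) of all genes tested lay without overlap above and below CTL. The median log2 fold change of all genes tested was −0.05 with 45.46% of genes positive, and −0.01 with 47.68% positive without CTL 4.24.

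**Figure D1:**
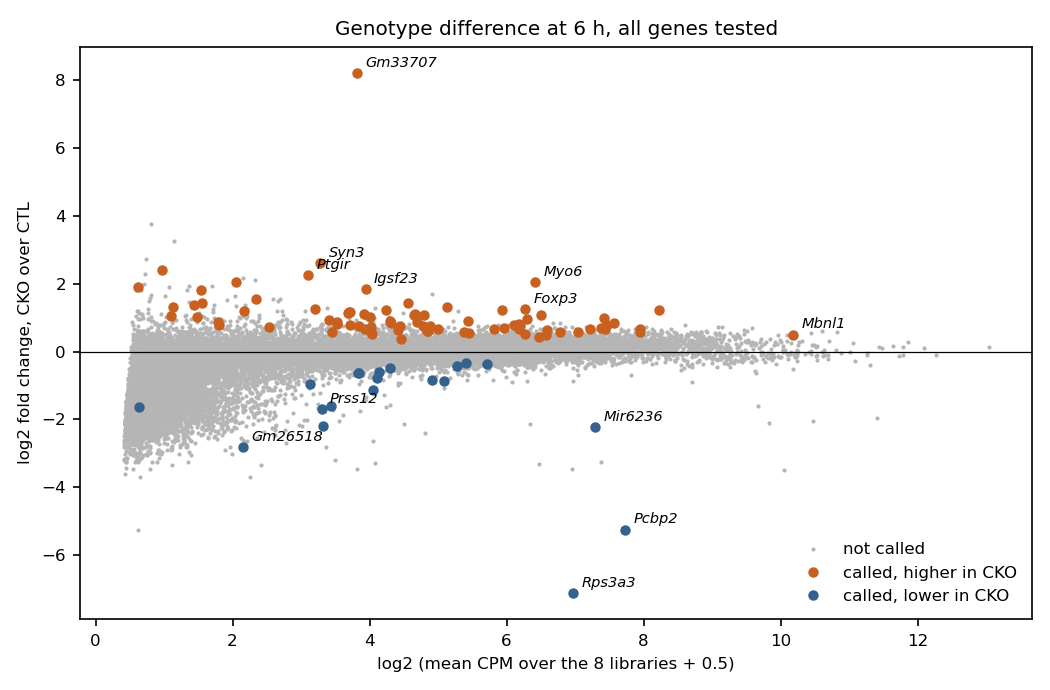
Each point is 1 of the 16612 genes tested, with its log2 mean CPM over the 8 libraries (offset 0.5) on the horizontal axis and its log2 fold change of CKO over CTL on the vertical axis. Called genes are coloured, 82 higher and 20 lower, and the grey cloud drops below 0 at the left, where the genes that pass the minimum only with CTL 4.24 lie.

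How many genes were called depended strongly on single libraries and on the model. Leaving out 1 library at a time gave 58 calls without CTL 4.29, 173 without CTL 4.24, 19 without CKO 5.13, 365 without CTL 5.13, 18 without CKO 5.6, 56 without CTL 9.20, 57 without CTL 10.28 and 277 without CKO 11.18. Of the 102 genes, 14 were called in each of these 8 fits, 12 higher and 2 lower. Those higher were Gm33707, Syn3, Ptgir, Myo6, Igsf23, Padi1, Vav2, Cers6, Sorcs2, Tmem64, Snn and Whamm, and those lower were Pcbp2 and Zmat1. DESeq2 called 347 genes, including all 102, whereas a model of the 8 libraries alone called 8. With quality weights for each library, limma voom called 5262 genes and gave weights from 0.0629 for CTL 4.24 to 4.67 for CTL 10.28. It called 5594 with CTL 4.24 left out. With the number in the titles as a block, edgeR called 41 genes (0.247%), 34 higher (0.205%) and 7 lower (0.0421%), and 31 of them were among the 102. Of the 14 genes above, Whamm (adjusted p = 0.0596) and Snn (0.0791) were not called with the block. The same holds for Mrgpre (0.0535), Mapk11 (0.0573), Fasl (0.0758), Gpr83 (0.079), Il6ra (0.0944), Ccr6 (0.1), Btbd2 (0.104), Dnajc15 (0.104), Nyx (0.141) and Cd80 (0.184). It holds as well for Ggt5, Tecpr2, Shld1, Nipa1, Rps3a3, Cst7, Mir6236, Myo1e, Nrm, Pecam1, Mxd1 and Mbnl1 (adjusted p from 0.05 to 0.282), while the other genes of the 102 that are named here kept their call. Below, calls are given with the fits without a library in which they ended. Losses under the remaining settings are not all listed by gene. Of the genes called in each fit without a library, Syn3, Vav2 and Zmat1 each lost their call in 1 other setting and Padi1 in 2.

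**Figure D2:**
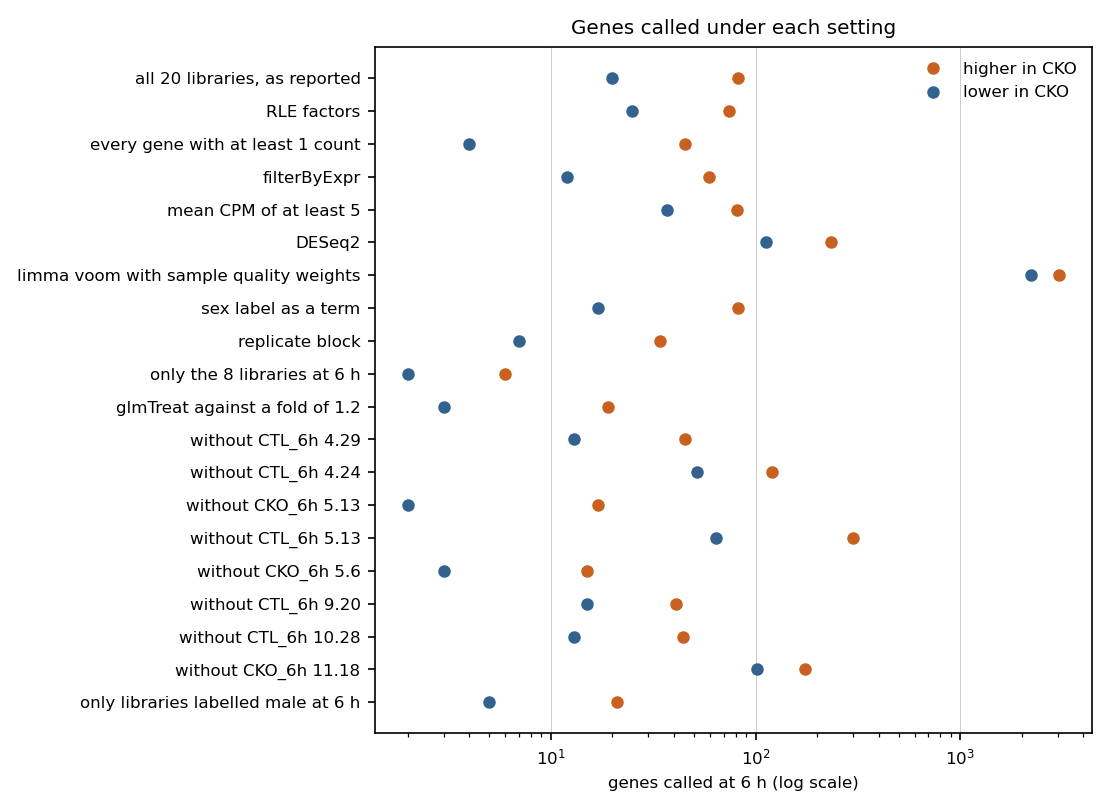
Dots give the number of genes called higher (orange) and lower (blue) in CKO at 6 h on a log scale, 1 row for each setting. The count was 82 and 20 with all 20 libraries as reported, fell to 6 and 2 with the 8 libraries alone, and reached 3053 and 2209 with voom quality weights.

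Of the 4 largest rises that the naming rule takes in, 3 were called in each fit without a library: a vesicle protein, a prostanoid receptor and an actin motor. Syn3, a synapsin, which belongs to a family of vesicle-binding proteins best known from nerve terminals, stood at 20.4, 19.9 and 17.5 CPM in CKO 5.13, 5.6 and 11.18. In CTL 4.29, 4.24, 5.13, 9.20 and 10.28 it stood at 2.43, 6.15, 2.59, 2.03 and 2.76 CPM. The groups did not overlap, and CTL 4.24 was the highest of the controls. Its log2 fold change was 2.61 ± 0.29 (SE, adjusted p = 4.33e-05), or 2.95 without CTL 4.24. Ptgir, the receptor for prostacyclin, stood at 18.6, 19.0 and 10.3 CPM in the CKO libraries in the same order and at 3.86, 2.80, 4.02, 2.77 and 3.32 CPM in the CTL libraries. All CKO values lay above all CTL values, with a log2 fold change of 2.25 ± 0.17 (adjusted p = 1.97e-07; 2.17 without CTL 4.24). Myo6, a myosin that walks along actin in the opposite direction to other myosins, stood at 148, 122 and 212 CPM in CKO and at 48.6, 35.7, 27.3, 43.2 and 40.4 CPM in CTL. Its groups were apart as well, by 2.04 ± 0.20 on the log2 scale (adjusted p = 7.88e-06; 1.98 without CTL 4.24).

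**Figure D3:**
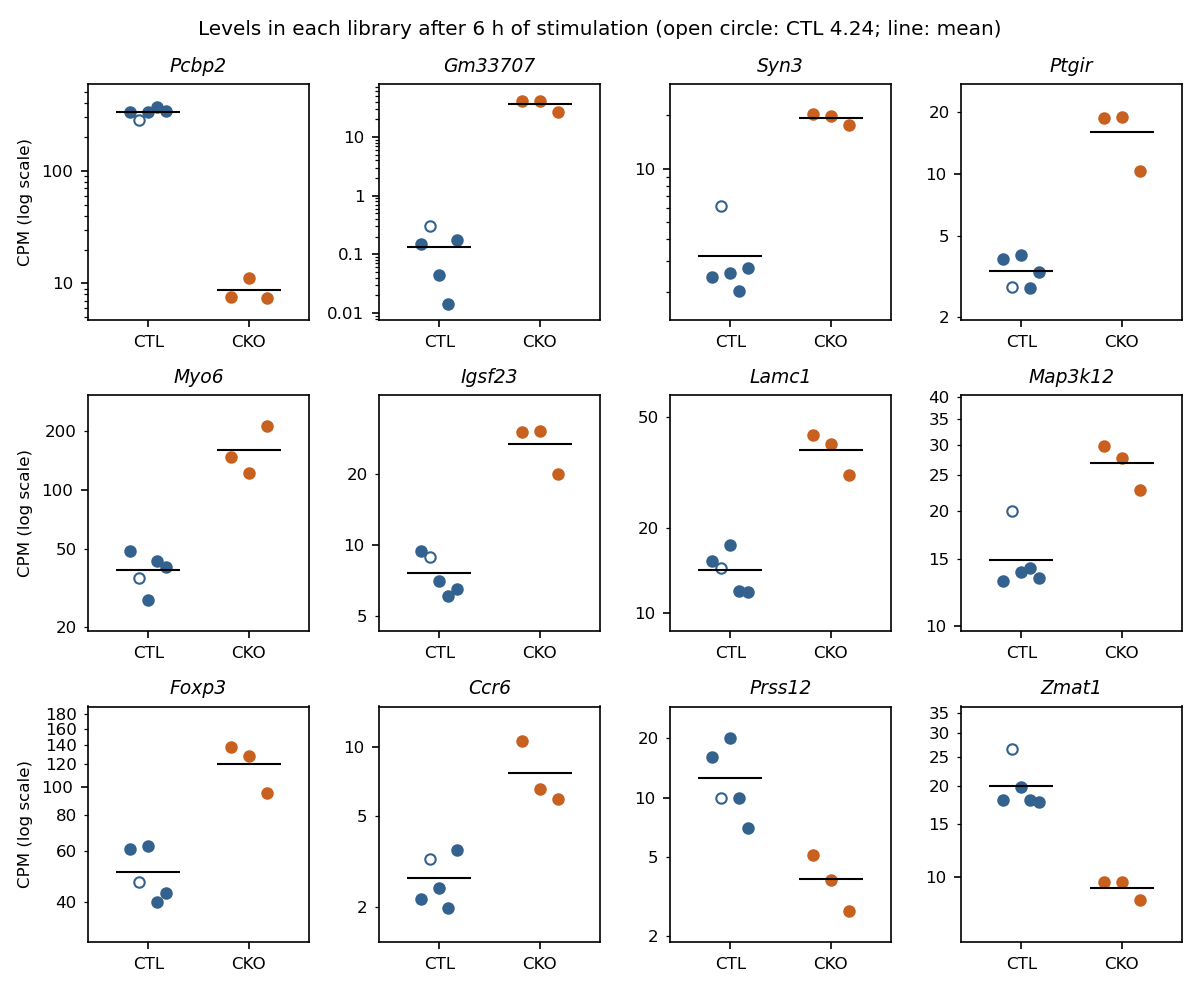
Dots are libraries, with the level in CPM on a log axis that differs between panels, CTL in blue and CKO in orange, an open circle for CTL 4.24 and a line at each group's mean. CKO lies apart from CTL in all 12 genes shown, and CTL 4.24 is the CTL library nearest to CKO for Pcbp2, Gm33707, Syn3 and Map3k12.

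Of the other rises that the naming rule takes in, 3 were called in each fit without a library. Igsf23, a member of the immunoglobulin superfamily, stood at 30.3, 30.7 and 20.1 CPM in CKO and at 6.07 to 9.45 CPM in CTL (log2 fold change 1.83 ± 0.17, adjusted p = 5.12e-06). Vav2, a guanine nucleotide exchange factor downstream of antigen receptors, stood at 59.3, 50.9 and 55.3 CPM against 12.2 to 27.7 CPM (1.3 ± 0.19, adjusted p = 0.00207). Padi1, which converts arginine in proteins to citrulline, stood at 4.26, 4.40 and 3.45 CPM against 1.34 to 1.71 CPM (1.43 ± 0.22, adjusted p = 0.00258). The lowest CTL value of Vav2 was that of CTL 4.24, without which its log2 fold change was 1.13. For Igsf23 and Padi1 it was 1.87 and 1.41 without that library.

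Other rises of the naming rule were less steady. Without CTL 4.24 their log2 fold changes were 1.41 for Lamc1, 2.31 for Noxa1, 1.19 for Mrgpre, 1.47 for Cd80 and 1.75 for Nyx, all of them called. Lamc1, the gamma 1 chain of laminins, stood at 42.9, 40.0 and 31.1 CPM in CKO and at 11.9 to 17.4 CPM in CTL (1.42 ± 0.23, adjusted p = 0.00416). Its call ended only without CKO 5.6 (adjusted p = 0.0526). Noxa1, an activator of NADPH oxidase, lay at 2.02 to 3.73 CPM in CKO and 0.215 to 0.795 CPM in CTL (2.41 ± 0.42, adjusted p = 0.00996), and Mrgpre, an orphan G protein-coupled receptor, at 1.61 to 3.33 and 0.754 to 1.39 CPM (1.3 ± 0.25, adjusted p = 0.0155). Both lost their call without CKO 5.13 or without CKO 5.6, with adjusted p up to 0.0798 for Noxa1 and 0.199 for Mrgpre. Cd80, a ligand of CD28 and CTLA-4, lay at 3.23 to 3.76 CPM in CKO and 1.03 to 1.78 CPM in CTL (1.38 ± 0.29, adjusted p = 0.0294). Its call ended without CTL 4.29, CTL 9.20, CTL 10.28, CKO 5.13 or CKO 5.6 (adjusted p up to 0.209, without CKO 5.6). Nyx, a small leucine-rich proteoglycan known from the retina, lay at 1.81 to 2.15 and 0.271 to 0.658 CPM (1.92 ± 0.42, adjusted p = 0.0404). That call ended without CTL 4.29, CTL 9.20 or CTL 10.28 (adjusted p up to 0.0922, without CTL 4.29).

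Outside the naming rule, and chosen after their values were seen because their calls held in each fit without a library, 5 more genes rose. Cers6, a ceramide synthase, stood at 103, 99.9 and 80.3 CPM in CKO 5.13, 5.6 and 11.18 and at 26.6 to 46.7 CPM in CTL (1.24 ± 0.15, adjusted p = 0.000276). Tmem64, a membrane protein, stood at 260, 235 and 244 CPM against 93.6 to 145 CPM (0.98 ± 0.13), and Sorcs2, a sorting receptor of the Vps10 family, at 25.0, 18.7 and 13.9 CPM against 7.18 to 9.90 CPM (1.16 ± 0.17). Whamm, which activates the Arp2/3 complex on Golgi membranes, had a log2 fold change of 0.68 ± 0.11, and Snn, which encodes stannin, one of 0.76 ± 0.12. All 5 had CKO and CTL libraries that did not overlap. Without CTL 4.24 the log2 fold changes were 1.11 for Cers6, 0.87 for Tmem64, 1.08 for Sorcs2, 0.59 for Whamm and 0.68 for Snn.

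Apart from Pcbp2, the fall of Zmat1 was the one whose call held in each fit without a library. Zmat1, a zinc finger gene of the p53 target list, stood at 9.65, 9.63 and 8.39 CPM in CKO 5.13, 5.6 and 11.18. In CTL 4.29, 4.24, 5.13, 9.20 and 10.28 it stood at 18, 26.7, 19.9, 18 and 17.8 CPM. All CKO values lay below all CTL values, among which CTL 4.24 stood highest, and the log2 fold change was −1.12 ± 0.15 (adjusted p = 0.00041; −1.02 without CTL 4.24). Prss12, a secreted serine protease also called neurotrypsin, stood at 5.14, 3.86 and 2.67 CPM in CKO and at 16.1, 9.92, 20.1, 10 and 7.00 CPM in CTL. Its log2 fold change was −1.70 ± 0.32 (adjusted p = 0.0147), and its CTL values spread more widely than those of Zmat1. Ggt5, a gamma-glutamyltransferase that acts on leukotriene C4, had a log2 fold change of −0.96 ± 0.17 (adjusted p = 0.0126). The death ligand gene Fasl lay at 9.20 to 11.6 CPM in CKO and 14.7 to 18 CPM in CTL (−0.64 ± 0.11, adjusted p = 0.0104), and Btbd2, a BTB domain gene, at 16.4 to 21.6 and 25.2 to 45.2 CPM (−0.85 ± 0.16, adjusted p = 0.0133). Without CKO 5.13 the calls on Prss12, Ggt5, Fasl and Btbd2 ended, and without CKO 5.6 those on Prss12, Ggt5 and Fasl did, with adjusted p up to 0.108, 0.099, 0.151 and 0.0824 in that order of genes. Without CTL 4.24 their log2 fold changes were −1.79, −0.86, −0.69 and −0.96, all called.

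Smaller or less steady falls completed the 12 that the rule names. Dnajc15, a J-domain cochaperone of mitochondria, fell by 0.77 ± 0.15 on the log2 scale (adjusted p = 0.0196), and Tecpr2, an autophagy gene, by 0.60 ± 0.11 (adjusted p = 0.014). Both calls ended without CKO 5.13, CKO 5.6 or CTL 10.28 (adjusted p up to 0.247 and 0.227, each without CKO 5.13), and without CTL 4.24 the log2 fold changes were −0.69 and −0.68. Shld1, a subunit of the shieldin complex of DNA repair, had a log2 fold change of −0.63 ± 0.14 (adjusted p = 0.0443), a call that was lost without CTL 4.29, CTL 9.20, CKO 5.13, CKO 5.6 or CKO 11.18 (up to 0.223, without CKO 5.6). Cst7 encodes cystatin F, an inhibitor of lysosomal cathepsins in immune cells, and lay at 2.92, 4.14 and 6.45 CPM in CKO and 10.7 to 15.8 CPM in CTL (−1.61 ± 0.36, adjusted p = 0.0446). Leaving out CKO 5.13 or CKO 5.6, or any CTL library other than 5.13, ended that call (up to 0.456, without CKO 5.13; 0.0517 without CTL 4.24). Nipa1, a magnesium transporter gene, was at 0.415 to 0.501 CPM in CKO and 1.13 to 2.23 CPM in CTL (−1.62 ± 0.33, adjusted p = 0.0219). It was not tested without CTL 4.24, since its mean then lay under the minimum, and its call ended without CKO 5.13 or CKO 5.6 (up to 0.199, without CKO 5.6). The annotated miRNA gene Mir6236 stood at 44.1 to 53.4 CPM in CKO and 55.4 to 377 CPM in CTL (−2.22 ± 0.49, adjusted p = 0.0417). It was called in only 1 of the 8 fits, the one without CTL 5.13, which was the lowest of the controls, and adjusted p reached 0.331 without CKO 5.13.

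The largest rise of all was in a gene that the naming rule leaves out and that was chosen after its values were seen, the processed pseudogene Gm33707 (ENSMUSG00000102298, GRCm38 chromosome 3, 60769887 to 60770455, minus strand). In CKO 5.13, 5.6 and 11.18 it stood at 40.4, 40.7 and 26.9 CPM, from 2739, 3234 and 1770 counts. The 5 CTL libraries held between 1 and 12 counts each, or 0.0144 to 0.301 CPM. The CKO mean was 265-fold the CTL mean, and the log2 fold change was 8.21 ± 0.44 (adjusted p = 4.7e-10; 8.52 without CTL 4.24). At 0 h the same split appeared, with 31.7 to 70.4 CPM in the 6 CKO libraries and 0.0445 to 0.233 CPM in the 6 CTL libraries. CKO and CTL were thus apart in all 20 libraries, as they were for Pcbp2, and the direction was opposite. CKO mice differ from CTL mice in carrying CD4-Cre as well as in lacking Pcbp2, and for this gene the loss of Pcbp2, the transgene and any sequence inherited with it cannot be told apart.

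Gm33707 resembles the mRNA of Eno1, the glycolytic enzyme enolase 1, and its sequence is shown because it bears on which gene a read can be assigned to. Its 569-base transcript aligned to positions 1009 to 1580 of the 1902-base Eno1 transcript at 89.529% identity over 573 columns, within the coding sequence, and the longest identical run was 76 bases. From the GENCODE M21 transcripts (GRCm38), the first 150 bases of the longest ungapped block of that alignment are given 5′ to 3′, with the 20 bases that differ in capitals. Gm33707 lies at chr3:60770042-60770191 on the minus strand, and the Eno1 bases lie in exons within chr4:150247586-150247913 on the plus strand.
Gm33707: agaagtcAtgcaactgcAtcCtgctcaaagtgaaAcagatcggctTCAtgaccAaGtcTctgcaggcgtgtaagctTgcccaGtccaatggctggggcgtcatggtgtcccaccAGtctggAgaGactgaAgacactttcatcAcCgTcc
Eno1: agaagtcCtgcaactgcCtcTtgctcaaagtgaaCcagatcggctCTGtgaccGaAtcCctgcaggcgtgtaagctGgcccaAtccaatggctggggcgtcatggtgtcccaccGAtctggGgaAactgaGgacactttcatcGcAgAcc
Eno1 averaged 338 ± 43.3 CPM over the 5 CTL libraries and 310 ± 7.36 CPM over the 3 CKO libraries (SD), and its log2 fold change of −0.13 ± 0.16 was not called (adjusted p = 0.607). The CKO mean of Gm33707, 36 CPM, is small beside the level of Eno1, and whether reads were divided between both genes was not tested. Of 5 genes tested within 500 kb of Gm33707, 2 were called, Gm33707 and Mbnl1. Mbnl1, a splicing regulator that ends 140.137 kb from it, stood at 1490, 1470 and 1320 CPM in CKO and 805 to 1160 CPM in CTL (0.50 ± 0.11, adjusted p = 0.0439).

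A second pseudogene, also chosen after its values were seen, went the other way. Rps3a3, a processed copy of the ribosomal protein gene Rps3a1 on chromosome 13, stood at 1.34 to 1.52 CPM in CKO and at 99.5, 383, 157, 174 and 180 CPM in CTL 4.29, 4.24, 5.13, 9.20 and 10.28 (log2 fold change −7.12 ± 1.52, adjusted p = 0.0374; −6.75 without CTL 4.24). At 0 h, 5 CKO libraries held 1.55 to 2.04 CPM, CKO 4.29 held 80.1 CPM and the CTL libraries 89.6 to 236 CPM. The split thus followed the genotype labels in 19 of the 20 libraries, and here too the loss of Pcbp2 and sequence inherited with the transgene cannot be told apart. Its call held in 2 of the 8 fits that leave out a library at 6 h, and its level is uncertain, because the sources used here do not state how the counting divided reads between near-identical copies.

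Next to the deleted gene, 2 of the other genes tested changed. Within 500 kb of Pcbp2, 31 genes were tested and 3 called, one of which was Pcbp2. By edgeR 11 of the 31 had an unadjusted p under 0.05, against 2998 of all 16612. Among the 11 were Soat2, Rpl39-ps, Hoxc9 and Hoxc8, added after their values were seen, which stood highest in CTL 4.24 (4.82, 12.2, 8.29 and 5.31 CPM). Without that library the edgeR adjusted p was 0.579, 0.756 and 0.703 for Soat2, Rpl39-ps and Hoxc9, and Hoxc8 was not tested. Map3k12, which encodes the JNK pathway kinase DLK, stood at 29.8, 27.7 and 22.8 CPM in CKO 5.13, 5.6 and 11.18 and at 13.1, 20, 13.9, 14.2 and 13.4 CPM in CTL. No CTL library reached the CKO range, the nearest being CTL 4.24, and the log2 fold change was 0.85 ± 0.14 (adjusted p = 0.00457; 0.95 without CTL 4.24). It lies on the opposite strand from Pcbp2, and the 3′ ends of the annotated genes overlap by 2416 bases. The noncoding RNA gene Gm26518, which lies on the opposite strand and overlaps the first part of Pcbp2, stood at 0.592 to 1.01 CPM in CKO and 2.22 to 15.7 CPM in CTL (−2.81 ± 0.55, adjusted p = 0.0193; −2.04 without CTL 4.24). The library kit keeps the strand, but no source used here states whether the counting did, and reads of overlapping genes cannot be told apart. The call on Map3k12 ended without CKO 5.6 (adjusted p = 0.0749), and that on Gm26518 without any 1 of the CKO libraries (up to 0.164, without CKO 5.13). Together with Mapk11, a p38 kinase gene at 97.9 to 101 CPM in CKO and 35.2 to 67.8 CPM in CTL (0.83 ± 0.15, adjusted p = 0.0126), Map3k12 made 2 higher calls among 19 genes of the JNK and p38 list, which had a median of 0.16. Without CTL 4.24 another member, Map3k1, added after its values were seen, was called higher as well (0.50, adjusted p = 0.0133). Mapk11 was no longer called without CKO 5.13 or without CKO 5.6 (adjusted p up to 0.0953).

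Genes of known groups were counted over 57 lists, of which 18 held a called member, and list medians ran from −1.47 to 1.2. The lists were written with earlier results of these data known, so a count of calls in a list is no test of it. Of the 39 lists with no call by edgeR, DESeq2 called a member in 12 and limma voom with quality weights in 36. The counts are set against 0.494% of genes called higher and 0.12% called lower and against the overall median of −0.05. Counts of list members at an unadjusted p under 0.05 are to be read beside 2998 of all 16612 genes. Among lineage lists, genes of regulatory T cells and of Th17 cells lay mostly above 0. They did so by their medians at 0 h too, at 0.62 and 0.77. The other lineage medians at 0 h were 0.60 for T follicular helper genes, 0.10 for T helper lineage factors and 0.06 for the RUNX and CD4/CD8 list. Of 18 regulatory T cell genes 16 were positive with a median of 0.35 (0.34 without CTL 4.24), and 2 were called, both higher. Foxp3, the lineage factor of regulatory T cells, stood at 138, 128 and 95.3 CPM in CKO 5.13, 5.6 and 11.18 and at 60.9, 46.9, 62.5, 39.9 and 42.7 CPM in CTL. Gpr83, a receptor enriched in those cells, stood at 15.3, 10.4 and 15.3 CPM in CKO and 6.14, 9.29, 3.87, 3.07 and 6.30 CPM in CTL. Neither gene overlapped between groups, with log2 fold changes of 1.25 ± 0.27 (adjusted p = 0.0358) and 1.26 ± 0.27 (adjusted p = 0.0325). The call on Foxp3 ended without CKO 5.13, CKO 5.6 or any CTL library other than 5.13 (adjusted p up to 0.272 without CKO 5.13; 0.0536 without CTL 4.24), with a log2 fold change of 1.21 without CTL 4.24, and that on Gpr83, at 1.46 without CTL 4.24, ended without CTL 4.29, CTL 9.20 or any 1 CKO library (up to 0.197, without CKO 5.13). The sort took CD25- cells, which removes cells with high surface CD25, and Il2ra, which encodes CD25, was at 153, 120 and 314 CPM in CKO and 147, 94.4, 101, 318 and 244 CPM in CTL. In bulk RNA, more cells of a type and more RNA per cell cannot be told apart.

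All 9 Th17 genes tested had a positive fold, with a median of 1.2 (1.34 without CTL 4.24, over 8 genes). The 1 called was Ccr6, the receptor for Ccl20 that marks Th17 and some regulatory T cells, at 10.7, 6.57 and 5.93 CPM in CKO and 1.97 to 3.55 CPM in CTL (1.54 ± 0.35, adjusted p = 0.0458). Its call ended without CTL 4.29, CTL 9.20, CTL 10.28, CKO 5.13 or CKO 5.6 (adjusted p up to 0.456, without CKO 5.13), and it was also the 1 called of 17 chemokine receptors, with a list median of −0.03. Without CTL 4.24, 2 Th17 genes were called higher, Ccr6 (1.58, adjusted p = 0.044) and the membrane protein gene Tmem176a (1.75, adjusted p = 0.0378), the latter added after its values were seen. T follicular helper genes were positive in 10 of 11 with a median of 0.33 and 0 called (3 at an unadjusted p under 0.05), and the surface receptor gene Slamf6 stood at 0.38 ± 0.15. All 15 genes of the RUNX and CD4/CD8 lineage list were positive, with a median of 0.32 (0.25 without CTL 4.24) and 0 called. Of them 6 had an unadjusted p under 0.05, and DESeq2 called 2 higher. Cd4 stood at 820, 731 and 610 CPM in CKO and at 450, 250, 677, 441 and 358 CPM in CTL, so that CTL 5.13 lay within the CKO range, and the difference of 0.73 ± 0.21 was not called (adjusted p = 0.135). Of 27 T helper lineage factors 21 were positive (median 0.22), with Foxp3 the 1 called, and without CTL 4.24 edgeR called 0 of 26.

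**Figure D4:**
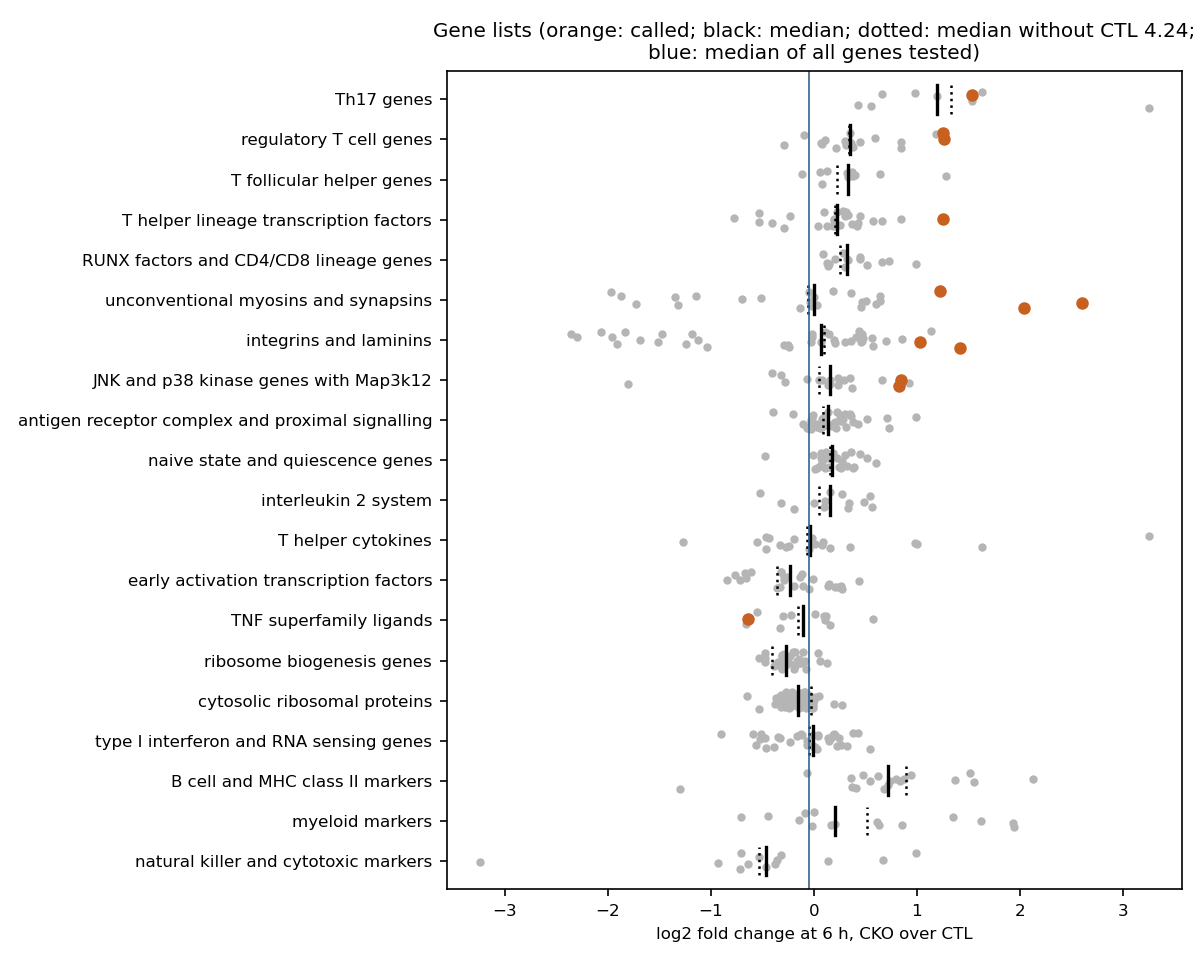
Dots are genes of 20 of the 57 lists, with the log2 fold change at 6 h on the horizontal axis, called genes in orange, a black bar at the list's median, a dotted bar at the median without CTL 4.24 and a blue line at the median of all genes tested. The Th17 list has the median farthest to the right among those drawn, at 1.2, and few dots of any list are orange.

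Motor and vesicle genes held 3 calls, as many without CTL 4.24, where the JNK and p38 list held 3 as well. Both lists were written with earlier results of these data known, so these counts lend no support to a shared theme. Of 25 unconventional myosins and synapsins 3 were called, all higher, although the list's median was 0.00 (−0.06 without CTL 4.24). These were Syn3, Myo6 and Myo1e, a class I myosin at 27.6, 22.2 and 36.2 CPM in CKO and 8.62 to 14.3 CPM in CTL (1.23 ± 0.28, adjusted p = 0.0458). The call on Myo1e ended without any 1 library other than CTL 5.13 (adjusted p up to 0.219, without CKO 5.13, and 0.0627 without CTL 4.24). Without CTL 4.24 the 3 calls of this list were Syn3, Myo6 and Myo1g (0.32, adjusted p = 0.0417), the last added after its values were seen. Of 39 integrins and laminins 2 were called, both higher, with a median of 0.07. Besides Lamc1 this was Itga7, a laminin-binding integrin chain, at 28.4, 22.3 and 17.6 CPM in CKO and 7.91 to 16.3 CPM in CTL (1.03 ± 0.22, adjusted p = 0.0325). Nrm, which encodes the inner nuclear membrane protein nurim, was the 1 called of 19 nuclear envelope genes (0.59 ± 0.13, adjusted p = 0.0433, list median 0.17). Ptgir was the 1 called of 10 prostanoid receptors and cyclooxygenases (median 0.23). The calls on Itga7 and Nrm each ended without CTL 4.29, CTL 9.20, CTL 10.28, CKO 5.13 or CKO 5.6, with adjusted p up to 0.331 and 0.418.

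Of 26 early activation transcription factors, 1 lay without overlap above CTL and 3 below, where 5.01% and 3.27% of all genes tested did. In this list 7 were positive, with a median of −0.23 (−0.36 without CTL 4.24), and edgeR called 0 (1 at an unadjusted p under 0.05). DESeq2 also called 0, and limma voom with quality weights called 11, all lower. Nr4a1, an orphan nuclear receptor induced by antigen receptor signals, stood at 507, 727 and 1030 CPM in CKO 5.13, 5.6 and 11.18 and at 986, 661, 639, 1310 and 1100 CPM in CTL 4.29, 4.24, 5.13, 9.20 and 10.28. The groups overlapped, with high values in CKO 11.18, CTL 9.20 and CTL 10.28 and low values in libraries whose number begins with 5 as well as in CTL 4.24, and the log2 fold change was −0.32 ± 0.28. Nfkb1, a subunit of the transcription factor NF-kB, was split in a similar way, at 748, 746 and 1240 CPM in CKO and 868, 577, 762, 1400 and 1100 CPM in CTL (−0.05 ± 0.22). Il2, the T cell growth factor gene, which was added after its values were seen, averaged 96.6 ± 79.3 CPM over the 3 CKO libraries and 111 ± 58.7 CPM over the 5 CTL libraries (SD; log2 fold change −0.19 ± 0.42). The spread between libraries of 1 genotype was thus larger than the difference between genotypes for all 3 genes.

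The signalling and cytokine lists gave few calls. Of 41 genes of the antigen receptor complex and its proximal signalling 31 were positive, with a median of 0.14 and 0 called (6 at an unadjusted p under 0.05), and the phosphatase gene Ptprc, which encodes CD45, stood at 0.25 ± 0.17. In the interleukin 2 system 10 of 13 were positive (median 0.16, 0 called, 3 at an unadjusted p under 0.05), with Stat5b, a transcription factor of that pathway, at 0.54 ± 0.18 (adjusted p = 0.225; 0.36 without CTL 4.24). Among 20 T helper cytokines the median was −0.03 with 0 called (4 at an unadjusted p under 0.05). T cell chemokines lay lower in 9 of 11, with a median of −0.31 (−0.16 without CTL 4.24, over 10 genes) and 0 called (6 at an unadjusted p under 0.05; DESeq2 called 3, all lower). Ccl5, a chemokine that draws T cells, stood at 11.9 to 13.9 CPM in CKO and 8.76 to 41.4 CPM in CTL (−1 ± 0.37, adjusted p = 0.249). Fasl was the 1 called of 12 TNF superfamily ligands (median −0.10). Il6ra, the interleukin 6 receptor chain, was the 1 called of 27 other cytokine receptors, at 350, 355 and 259 CPM in CKO and 152 to 248 CPM in CTL (0.68 ± 0.13, adjusted p = 0.0155; list median 0.23). Without CKO 5.13, CKO 5.6 or CTL 9.20 that call ended (adjusted p up to 0.199, without CKO 5.13). Without CTL 4.24 the list held 2 higher calls, Il6ra (0.57) and the interferon receptor gene Ifnar1 (0.45, adjusted p = 0.0206), and 1 lower call, the interleukin 7 receptor gene Il7r (−0.63, adjusted p = 0.0172), the latter pair added after their values were seen.

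The feedback, TNF receptor and costimulatory receptor lists held 0 calls by edgeR. MAP kinase phosphatases and Sprouty genes were positive in 6 of 15 (median −0.15, 2 at an unadjusted p under 0.05), with Dusp2, a phosphatase of ERK and p38, at −0.38 ± 0.25. Inhibitors and feedback genes of NF-kB were positive in 14 of 16 (median 0.21, 3), TNF receptors in 13 of 19 (median 0.16, 4) and costimulatory and inhibitory receptors in 17 of 27 (median 0.07, 3), the last number in each case being the genes at an unadjusted p under 0.05. Cd5, an inhibitory receptor, stood at 0.24 ± 0.14. Naive and quiescence genes were positive in 25 of 27 (median 0.18, 4 at an unadjusted p under 0.05), and without CTL 4.24, with 23 of 27 positive, Il7r was called lower.

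The lists of ribosome and respiratory genes lay slightly lower in CKO by their medians, with no member called by edgeR. Of 37 ribosome biogenesis genes 3 were positive (median −0.27, 4 at an unadjusted p under 0.05), and without CTL 4.24 it was 0 of 37 (median −0.40). Between libraries of a group, the list's median deviation had an SD of 0.51. Limma voom with quality weights called 35 of these genes lower and 0 higher. Npm1, the nucleolar protein nucleophosmin, stood at 536, 553 and 899 CPM in CKO 5.13, 5.6 and 11.18 and at 768, 765, 580, 1080 and 924 CPM in CTL (−0.31 ± 0.19, adjusted p = 0.313). Here too CTL 5.13 lay with CKO 5.13 and 5.6, and CKO 11.18 lay with the other controls. Cytosolic ribosomal proteins had a median of −0.16 with 5 of 83 positive, but −0.03 with 22 of 83 positive without CTL 4.24. Respiratory chain and ATP synthase genes moved likewise, from −0.23 to −0.09 over 84 genes, and mitochondrially encoded mRNAs from −0.52 over 9 to −0.18 over 8. In CTL 4.24 the summed level of those mRNAs was 15935 CPM, against 10223 to 12621 CPM in the other CTL libraries and 9679 to 10487 CPM in CKO, with mt-Cytb, a subunit of complex III, at −0.29 ± 0.26. The medians of these 3 lists thus moved by over 1.5 times with that library left out, and edgeR called 0 of their members (2, 18 and 0 at an unadjusted p under 0.05).

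**Figure D5:**
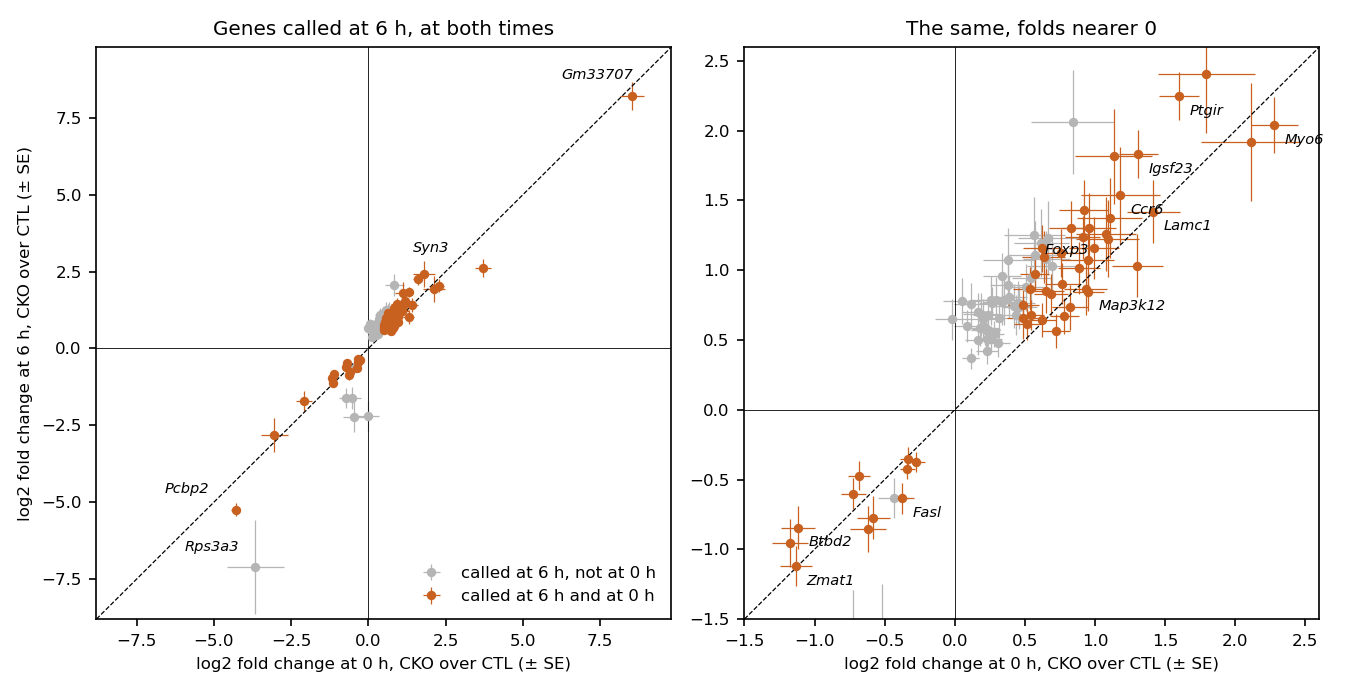
Dots are the 102 genes called at 6 h, with the log2 fold change at 0 h on the horizontal axis and at 6 h on the vertical axis, bars of 1 SE, a dashed line of equal folds, and the part nearer 0 enlarged at the right. Those also called at 0 h are orange, and 101 of the 102 have the same sign at both times.

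The other growth and metabolism lists held at most 1 call by edgeR. Mitochondrial ribosomal proteins were positive in 10 of 78 (median −0.19, 0 called, 19 at an unadjusted p under 0.05), the proteasome in 10 of 47 (median −0.12, 0 called, 5) and translation initiation factors in 25 of 53 (median −0.02, 0 called, 7). In that order of lists, limma voom with quality weights called 42, 26 and 26 genes lower and 0, 1 and 4 higher. Psme1, a subunit of the proteasome activator PA28, stood at −0.23 ± 0.13 and Eif5a, a translation factor that carries hypusine, at −0.37 ± 0.21. Eif4g2, a relative of the scaffold factor eIF4G, stood at −0.31 ± 0.18 and was called lower without CTL 4.24 (−0.48, adjusted p = 0.0357). Of 37 aminoacyl-tRNA synthetases 20 were positive (median 0.01, 0 called, 4 at an unadjusted p under 0.05), and Lars2, the mitochondrial leucyl-tRNA synthetase, spread from 265 to 344 CPM in CKO and from 316 to 2520 CPM in CTL (−2.10 ± 0.49, adjusted p = 0.0567). Trib3, a pseudokinase gene that Atf4 induces, was the 1 called of 26 genes of the Atf4 program, at 21.4, 22.9 and 21.2 CPM in CKO and 8.81 to 12 CPM in CTL (1.1 ± 0.19, adjusted p = 0.00782), while the list's median was −0.05. Its call ended without CKO 5.6 (adjusted p = 0.0787). Dnajc15 was the 1 called, lower, of 62 heat shock and J-domain genes (median −0.03). The lists of glycolysis (median 0.07, 32 genes), cholesterol synthesis (0.13, 24), amino acid transport (0.14, 19), polyamines (−0.02, 10) and iron handling (0.00, 15) held 0 calls, with 2, 4, 3, 2 and 3 genes at an unadjusted p under 0.05.

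Cell cycle and survival lists gave 2 calls. Mxd1, an antagonist of Myc that pairs with Max, was the 1 called of 13 genes of the Max network, at 221, 188 and 259 CPM in CKO and 105 to 166 CPM in CTL (0.66 ± 0.15, adjusted p = 0.0439; list median 0.08). That call ended in 6 of the 8 fits, those without any 1 CKO library, CTL 4.24, CTL 9.20 or CTL 10.28 (up to 0.255, without CKO 5.13; 0.0532 without CTL 4.24). Zmat1 was the 1 called, lower, of 26 p53 target genes, whose median was 0.12. Mitosis genes were positive in 15 of 24 (median 0.18), and without CTL 4.24 in 22 of 24 (median 0.25), with 0 called (1 at an unadjusted p under 0.05). Of these, the centromere histone gene Cenpa stood at 0.62 ± 0.15 (adjusted p = 0.0681) and Mki67 at 0.55 ± 0.41. DNA replication genes (median 0.06, 44 genes) and G1 cyclins, kinases and E2F factors (−0.03, 29 genes) held 0 calls, with 7 and 3 at an unadjusted p under 0.05; Rpa1, of the single-strand binding complex, stood at 0.38 ± 0.16 and Ccnd2, the cyclin D2 gene, at −0.44 ± 0.26. The BCL2 family was positive in 11 of 18 (median 0.14, 0 called, 3 at an unadjusted p under 0.05), with Bcl2l11, which encodes the proapoptotic Bim, at 0.29 ± 0.14 and the survival gene Mcl1 at 0.21 ± 0.11. Gimap GTPases, which act in lymphocyte survival, were positive in 7 of 8 (median 0.21, 0 called, 1).

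Lists that relate to the known roles of Pcbp2 also held few calls. Among 39 hnRNP, PTB and SR splicing factors Mbnl1 was the 1 called, and the median went from 0.04 to −0.08 without CTL 4.24. The call on Mbnl1 ended without CTL 4.29, CTL 9.20, CTL 10.28, CKO 5.13 or CKO 5.6 (adjusted p up to 0.392, without CKO 5.13). Regulators of mRNA decay were positive in 23 of 26 (median 0.19; 0.05 without CTL 4.24) with 0 called and 0 at an unadjusted p under 0.05, and Btg1, which recruits the deadenylase complex, stood at 0.19 ± 0.10. Of 11 genes linked to Pcbp2 in the literature 7 were positive (median 0.15; 0.01 without CTL 4.24) and 0 were called, with 1 at an unadjusted p under 0.05. Fth1, the heavy chain of ferritin, stood at −0.12 ± 0.17. Type I interferon and RNA sensing genes were positive in 17 of 35 (median 0.00, 0 called, 10 at an unadjusted p under 0.05) and interferon-induced GTPases in 11 of 18 (median 0.08, 0 called, 0). Without CTL 4.24, 1 gene of the first of these lists was called lower, Oasl2 (−0.97, adjusted p = 0.0356; added after its values were seen), and the medians were −0.05 and −0.06.

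Markers of other cells were present at low levels. With all libraries, the summed levels of the B cell and of the myeloid list overlapped between the genotypes. B cell and MHC class II markers were positive in 17 of 19 tested (median 0.72; 19 of 19 and 0.90 without CTL 4.24), with 0 called by edgeR and 4 at an unadjusted p under 0.05. Their summed level was 202 to 371 CPM in CTL, CTL 4.24 being the highest, and 293 to 648 CPM in CKO. Without CTL 4.24 the CTL sums ran from 202 to 258 CPM, all below those of CKO. The median deviation of this list had an SD of 0.57 between libraries of a group, and its median log2 fold change at 0 h was −0.07. Cd74, the invariant chain of MHC class II, stood at 0.74 ± 0.46 and Ighm, the heavy chain of IgM, at 0.68 ± 0.20. Myeloid markers were positive in 9 of 15 (median 0.20; 0.52 over 11 without CTL 4.24), summed to 170 to 210 CPM in CKO and 141 to 210 CPM in CTL, and had 0 calls and 1 unadjusted p under 0.05. Lyz2, a granule protein of myeloid cells, stood at 0.529, 5.79 and 1.47 CPM in CKO and 0.172 to 1.44 CPM in CTL, and the pore-forming gene Mpeg1 at 0.64 ± 0.64. The part of these cells in the genes named above was not tested.

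The remaining marker lists had medians below 0 with all libraries. Natural killer and cytotoxic markers were positive in 3 of 13 (median −0.46, 0 called, 3 at an unadjusted p under 0.05), summed to 70.0 to 87.5 CPM in CKO and 64.1 to 113 CPM in CTL, and included Eomes at −0.53 ± 0.38 and Gzmk at −0.37 ± 0.51. Dendritic cell markers were positive in 3 of 7 (median −0.28; 0.02 without CTL 4.24, 0 called, 0), with Bst2 at −0.33 ± 0.19. Of 9 stromal and endothelial markers 1 was positive (median −1.47; −0.36 over 5 without CTL 4.24), namely Pecam1, the adhesion molecule CD31, which T cells also carry. It was called higher, at 353, 323 and 253 CPM in CKO and 161 to 243 CPM in CTL (0.59 ± 0.13, adjusted p = 0.0341), and its call ended without CTL 4.29, CTL 9.20, CTL 10.28, CKO 5.13 or CKO 5.6 (up to 0.416, without CKO 5.13). A single erythroid and platelet marker of 11 passed the minimum, at −0.02.

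The genes called after stimulation largely differed before it as well. At 0 h the same model called 241 of the 16612 genes (1.45%), with 132 higher (0.795%) and 109 lower (0.656%) in CKO. Of these, 53 were called at 6 h in the same direction, 39 higher and 14 lower, which is 51.96% of the calls at 6 h and 21.99% of those at 0 h. Ptgir had log2 fold changes of 2.25 at 6 h and 1.6 at 0 h, Myo6 2.04 and 2.28, Lamc1 1.42 and 1.42, and Zmat1 −1.12 and −1.13. The log2 fold change of Syn3 was smaller at 6 h than at 0 h, at 2.61 and 3.71, and that of Pcbp2 was −5.24 and −4.30. Some genes called at 6 h were not called at 0 h, among them Foxp3 (1.25 and 0.57), Cst7 (−1.61 and −0.52), Il6ra (0.68 and 0.24) and Mbnl1 (0.50 and 0.16). For the regulatory T cell list as a whole, the median was 0.35 at 6 h and 0.62 at 0 h. The difference between the times was tested as an interaction of genotype and time, and edgeR called 0 genes, with 606 at an unadjusted p under 0.05 and a smallest adjusted p of 0.771. DESeq2 also called 0, and limma voom with quality weights called 1691. By edgeR no gene named here was therefore shown to differ between rest and stimulation in its difference between CKO and CTL. In simulated data the interaction test recovered 24% and 28% of 2-fold falls and rises, so its lack of calls does not show the differences to be equal.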

How the data were processed

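The authors deposited raw counts, not normalized, in 1 table with a row per Ensembl gene and a column per library (0 columns of other samples). Per the labels' protocols, total RNA (100 ng per library, integrity numbers 5.0 to 8.7) went into stranded mRNA libraries, read as 150-base pairs. Tools listed in the submitters' processing notes are STAR 2.5.2b, Trimmomatic 0.36, Subread 1.5.2 and featureCounts, with build GRCm38. Of 49315 IDs, 49056 matched GENCODE M21. Counts were tested with edgeR 4.0.16 (R 4.3.3; TMM, robust quasi-likelihood fit of 4 groups over 20 libraries, two-sided, Benjamini and Hochberg); CPM are TMM scaled and taken over tested genes (over all counts for Cd3e, Trac, Cd8a, Lyz2 and Il2ra); values after ± are SE for log2 folds and SD for CPM. Alternatives used DESeq2 1.42.0, limma 3.58.1, other filters, scalings and covariates; those combined with leaving out CTL 4.24, and male-labelled libraries alone, were chosen after seeing the data. Named genes are the Pcbp2 family, the 12 largest rises and 12 largest falls called (no sex-defining, predicted, pseudogene or receptor-segment genes), up to 3 called members per list or up to 2 abundant uncalled ones, and called neighbours of Pcbp2; others are said to be chosen after their values were seen. Members, the 57 lists and tests were chosen with earlier results of these data known. In data simulated for CKO against CTL at 6 h over 16612 genes, 80% and 78% of 4-fold falls and rises and 40% and 46% of 2-fold ones were recovered, with 1 call among unchanged genes. For genotype by time the rates were 60% and 74% of 4-fold and 24% and 28% of 2-fold ones, with 2 calls among unchanged genes. The simulated libraries were drawn independently around group means. They lacked the shared deviations of same-number libraries and the background of CTL 4.24, so these rates may not hold for the real libraries. Some items are not reported here. Among the 43 pairs of libraries compared, which are not all pairs of the 20, none were copies: chi-square per degree of freedom ran from 29.4 to 461.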

Additional observations from a re-analysis of the deposited data

Results flagged for a closer look

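Within the 5 CTL libraries at 6 h, 86 values were looked at for a library far from the rest, by the gap to its nearest neighbour as a share of the group's range (over 0.71 for 5 libraries). Chance marks about 1 in 20 such groups; 16 were marked here, 14 of them by CTL 4.24. CTL 4.24 held 26427467 counts (62402807 to 69372546 in the others), 2.02% mitochondrial counts (1.05% to 1.27%), 1.8% in processed pseudogenes and unconfirmed models (0.403% to 0.486%) and 2.65% in genes not tested (0.278% to 0.508%). Genes it held at the highest level were Syn3 at 6.15 CPM (2.03 to 2.76 in the others), Map3k12 at 20 CPM (13.1 to 14.2), Zmat1 at 26.7 CPM (17.8 to 19.9), Nipa1 at 2.23 CPM (1.13 to 1.29), Gm26518 at 15.7 CPM (2.22 to 3.73) and mt-Cytb at 3600 CPM (1780 to 2140). Those it held at the lowest level were Vav2 at 12.2 CPM (23.5 to 27.7), Bcl2l11 at 138 CPM (213 to 242), Ptprc at 1050 CPM (2070 to 2430) and Mcl1 at 631 CPM (827 to 877). Of 2 other values, Mpeg1 reached 21.2 CPM in CTL 10.28 (3.80 to 8.58 in the others) and Cenpa 71.0 CPM in CTL 5.13 (49.2 to 54.8). The groups of 3 CKO libraries were not looked at in this way.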

How the results depend on the processing

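Loss of Pcbp2 and the rises of Gm33707, Syn3, Ptgir, Myo6, Igsf23, Vav2 and Padi1 kept their direction and stayed called when any 1 library at 6 h was left out; most other calls did not, and depth was lowest in CTL 4.24. The cause of each change that follows was not tested. Of 102 calls (82 higher, 20 lower), 49 (45 and 4) were left when every gene with a count was tested, 22 (19 and 3) against a fold of 1.2, 8 (6 and 2, with 1 near Pcbp2) with the 8 libraries alone and 26 (21 and 5) with male-labelled libraries at 6 h, the last chosen after seeing the data. DESeq2 called 347 (234 and 113, 5 near Pcbp2) and voom with quality weights 5262 (3053 and 2209, 15 near Pcbp2, and 1691 for genotype by time). Lower calls numbered 12 with filterByExpr and 37 with a mean CPM of at least 5. Without 1 library the counts ran from 18 to 365 in all, 15 to 301 higher, 2 to 102 lower and 1 to 4 near Pcbp2. They were 58 (45 and 13) without CTL 4.29, 173 (121 and 52) without CTL 4.24, 365 (301 and 64) without CTL 5.13, 56 (41 and 15) without CTL 9.20, 57 (44 and 13) without CTL 10.28, 19 (17 and 2) without CKO 5.13, 18 (15 and 3) without CKO 5.6 and 277 (175 and 102) without CKO 11.18. With the number in the title as a replicate block, 41 genes were called (34 and 7), of which 31 were among the 102. CKO and CTL at 6 h share the single number 5.13 (correlation of deviations 0.603). Same-number correlations ran from 0.28 to 0.693 between the genotypes at 0 h, from 0.294 to 0.599 between times in CTL and from 0.0765 to 0.693 over all 20 pairs. The numbers thus went together in those libraries, while for the comparison at 6 h the pairing rests on 1 pair.

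Settings combined with leaving out CTL 4.24 were chosen after seeing the data. Against 173 calls there, DESeq2 gave 471 (317 and 154), voom 5594 (2883 and 2711), the 7 libraries alone 36 (24 and 12) and filterByExpr 18 lower. Leaving out a further library gave 44 to 1080 in all, 30 to 535 higher and 12 to 545 lower. Specifically, without CKO 5.13 there were 44 (30 and 14), without CTL 5.13 444 (296 and 148), without CKO 5.6 54 (42 and 12), without CTL 9.20 91 (64 and 27), without CTL 10.28 87 (65 and 22) and without CKO 11.18 1080 (535 and 545).

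Some uncalled log2 fold changes near 0 changed sign. Hnrnpk stood at −0.028 with RLE factors and with DESeq2, −0.096 with a mean CPM of at least 5, −0.162 with voom (where it was called, adjusted p = 0.0455, as were Pcbp1 at 0.031, Pcbp3 at 0.022 and Pcbp4 at 0.00879), −0.0032 with the sex label as a term (2 CKO libraries at 0 h labelled male, 4.24 and 5.6, held Xist at 1180 and 1340 CPM), −0.064 in male-labelled libraries and −0.106 to 0.056 without 1 library (−0.0068 without CTL 5.13, −0.0044 without CKO 5.6 and −0.068 without CKO 11.18). Nfkb1 stood at 0.0053 with every gene, 0.010 with the block and −0.333 to 0.099 without 1 library (0.088 without CKO 5.13, 0.055 without CKO 5.6 and 0.016 without CTL 10.28). Pcbp1 stood at 0.00079 with every gene, 0.057 in male-labelled libraries and −0.294 to 0.058 without 1 library (0.0056 without CKO 5.6). Pcbp3 stood at −0.014 with a mean CPM of at least 5 and −0.041 in male-labelled libraries. Mpeg1 stood at −0.64 with voom and −0.048 to 1.31 without 1 library, Fth1 at 0.18 with voom and Gzmk at 0.21 with voom. Of the remaining values for named genes, 1011 kept direction and side of the threshold, 249 lost a call and 31 gained one; list medians moved by less than the spread between libraries in 1034 cases and by more in 49.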
